A study of Mus musculus with 4 samples.

Results

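The cells described here are Eomes-expressing intermediate progenitors of the E14.5 mouse telencephalic midline. A barcode was taken as one of them when it had at least 1000 detected genes, at most 10% of its unique molecular identifiers (UMIs, each standing for 1 captured RNA molecule) in mitochondrial genes, at least 3 UMIs of Eomes and no UMI of Trp73, a gene of the Cajal-Retzius neurons of this region. By that rule 1361 of 7069 kept barcodes of the control library and 1127 of 5572 of the gof library were Eomes cells, 2488 of 12641 at this age. The 4 libraries of the series held 27196 kept barcodes in all. The cells were chosen by their UMIs of Eomes and Trp73, so these levels are given as a description and support nothing.

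Intermediate progenitors, also called basal progenitors, are born from radial glia, the stem cells that line the ventricle. They switch on the transcription factor Eomes (Tbr2), divide away from the ventricle a limited number of times and give rise to glutamatergic neurons of the cortex and hippocampus. Next to this region lies the cortical hem, a signalling centre on the rim of the cortical sheet, whose Wnt and Bmp ligands induce the hippocampus. Canonical Wnt signals act by stabilising beta-catenin, the product of Ctnnb1, which then switches on target genes together with Tcf and Lef factors.

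The series held transcriptomes of single cells from tissue dissected around the hem, with 1 library for each of 2 genotypes at each of 2 ages, and only the E14.5 pair is described here. Control embryos were Lmx1aCre::Ai9 and the others Lmx1aCre::Ai9::b-cat gof, named gof below. Both genotypes therefore carried the Cre recombinase and Ai9, a reporter that makes tdTomato once Cre has acted. The gof embryos also carried a gain-of-function allele of beta-catenin. Cre was driven by Lmx1a, a hem gene, so the reporter marks cells with a history of Cre activity, and most Eomes cells of either genotype held no tdTomato UMI. Each E14.5 library came from both hemispheres of 3 male embryos pooled, so the spread between embryos or litters is not known. No p-value was therefore computed, and the 95% intervals below cover counting error only.

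The Eomes cells were sequenced to similar depths in the 2 libraries, at 13403 UMIs for the median cell in control and 14073 in gof, and 4373 and 4303 genes. Their UMIs summed to 25181210 in control and 21268753 in gof. Mitochondrial genes held a median of 3.29% and 2.45% of their UMIs. No Eomes cell shared a barcode sequence with the other library. Ctnnb1 stood at 323 CPM (UMIs per 1000000 UMIs of the summed cells) in control and 301 CPM in gof, but this 3' measurement does not check the allele.

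Eomes cells made up 19.3% of kept barcodes in control (exact Clopper-Pearson 95% interval 18.3 to 20.2) and 20.2% in gof (19.2 to 21.3). After every barcode was thinned to 5000 UMIs, the same rule found 714 of 6586 barcodes in control, 10.8% (10.1 to 11.6), and 498 of 5190 in gof, 9.60% (8.81 to 10.4). The order of the 2 libraries thus turned with thinning and the intervals overlapped both times. A reference class of GABAergic neurons, which should lack Eomes, had 3 or more Eomes UMIs in 2 of 33 barcodes in control and 2 of 30 in gof, at median depths of 7450 and 8656 UMIs. Just inside the Eomes threshold, 160 control and 150 gof cells had 3 UMIs, and just outside it 187 and 170 had 2. The exclusion of Trp73 took 241 barcodes with 3 or more Eomes UMIs out of the control library and 14 out of the gof library.

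Markers were compared with those of radial glia and of neurons, the classes before and after these cells in the lineage. For comparison, radial glia were taken as kept barcodes with at least 3 Sox2 UMIs and none of Eomes, Neurod2 or Trp73 (1989 in control, 1586 in gof), and projection neurons as those with at least 3 Neurod2 UMIs and none of Eomes, Sox2 or Trp73 (687 and 729). These definitions fix Eomes, Sox2, Neurod2 and Trp73, which are not compared between the classes. Levels are CPM over the summed UMIs of a class. A gene was called different where its levels differed at least 1.5-fold, with 1 CPM added to each, and the exact Poisson 95% intervals were separate, among genes with a mean of at least 10 CPM.

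Against radial glia, 12.5% of 9226 genes were called higher and 14.1% lower in control Eomes cells, and 12.3% and 12% of 9009 in gof. Neurod1, a proneural factor of late progenitors, stood at 372 CPM in control Eomes cells against 4.28 in radial glia, and at 349 against 4.10 in gof. The vesicular glutamate transporter Slc17a6 stood at 213 CPM against 4.52 in control and at 151 against 1.38 in gof. Rbfox3, which encodes the neuronal nuclear protein NeuN, stood at 390 CPM against 5.47 in control and 282 against 3.28 in gof. Of 13 measured pan-neuronal genes, 13 were higher than in radial glia in each library. Of the radial glia genes other than Sox2, 14 of 17 measured were lower in control and 13 of 16 in gof. Among the genes furthest below radial glia were Id3, an inhibitor of differentiation factors, at 112 CPM against 471 in control and 41.5 against 199 in gof, and the astroglial aldolase Aldoc at 65.9 against 218 and 57.5 against 211.

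Against projection neurons the background was 21% of 9139 genes called higher and 15% lower in control, and 16.9% and 15% of 8994 in gof. Hes5, a Notch effector that holds cells in the progenitor state, stood at 715 CPM in control Eomes cells against 28.1 in neurons, and at 704 against 19.9 in gof. The growth-cone protein gene Stmn2 was far lower, at 185 CPM against 2854 in control neurons and 169 against 1681 in gof neurons. Of the 13 pan-neuronal genes, 2 were higher and 9 lower than in neurons in control, and 1 was higher and 10 lower in gof. Elavl4, an RNA-binding protein gene of neurons, was higher in both libraries, at 461 CPM against 157 in control and 466 against 249 in gof. Rbfox3 was the other in control, at 390 CPM against 161. In gof it stood at 282 CPM against 224, not past the limit.

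**Figure D1:**
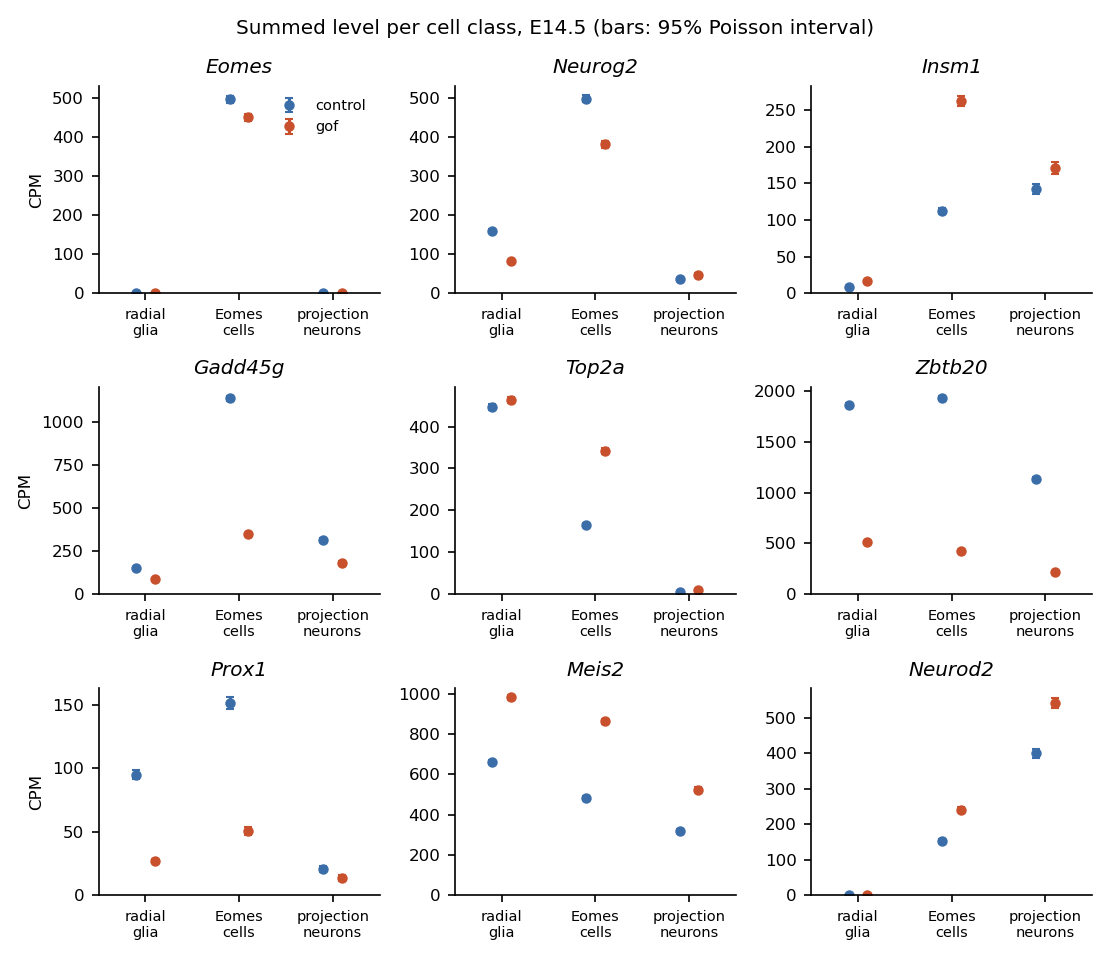
Summed level (CPM) of 9 genes in radial glia, Eomes cells and projection neurons of the control and gof E14.5 libraries, with bars for the 95% Poisson interval. Eomes is 0 in the other classes by definition, Neurod2 is 0 in radial glia by definition, Insm1 is higher and Gadd45g lower in gof Eomes cells, and Zbtb20 is lower in gof in all 3 classes.

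Between the genotypes, 384 of 9058 measured genes (4.24%) were called higher in gof Eomes cells and 771 (8.51%) lower. The median log2 ratio over all measured genes, gof over control, was −0.07. All log2 ratios below are on this log2(CPM + 1) scale. Of the markers of the cell type, 1 of 5 was higher and none was lower by this rule. Eomes itself stood at 496 CPM in control and 450 in gof, and the median cell held 8 UMIs of it in control and 7 in gof. The proneural factor Neurog2 stood at 498 and 381 CPM (log2 ratio −0.39), Neurod1 at 372 and 349, and the antiproliferative gene Btg2 at 269 and 198 (log2 ratio −0.44), none of them past the 1.5-fold limit.

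Insm1, a zinc-finger factor that promotes the formation of basal progenitors, was the marker that was higher. The gene lies at chr2:146221921-146225020 on the plus strand (GRCm38, GENCODE M21). It stood at 112 CPM in control (108 to 116) and 263 in gof (257 to 270), a log2 ratio of 1.22. At 5000 UMIs per cell, 40.0% of control Eomes cells (37.4 to 42.7) and 63.0% of gof Eomes cells (60.1 to 65.9) had an Insm1 UMI, and at full depth 67.6% and 86.9% did. In radial glia the thinned shares were 4.45% and 7.92%, at median depths of 15056 and 16634 UMIs, and in projection neurons 44.8% and 54.8%, at 15075 and 14464 UMIs. Insm1 was thus found in more of the Eomes cells of gof as well as at a higher summed level. It was also called higher in gof radial glia, at 8.71 and 16.1 CPM, and stood at 142 and 171 CPM in projection neurons, not past the limit. In radial glia Insm1 reached the mean of 10 CPM only through gof, so it could be called only higher there.

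Gadd45g, a stress and cell cycle sensor gene that is transiently on in cells leaving the progenitor state, went the other way. The gene lies at chr13:51846678-51848468 on the plus strand. It fell by 1.71 on the log2 scale, from 1136 CPM in control to 347 in gof. Its thinned share of cells was 93.2% in control (91.7 to 94.5) and 71.2% in gof (68.5 to 73.9), against 34.1% and 14.9% of radial glia. Radial glia held 150 and 87.6 CPM and projection neurons 315 and 182, so gof was lower in all 3 classes. The matrix gene Mfap4 was the other member of the list of further intermediate progenitor genes that was lower, at 302 CPM in control and 149 in gof. That list had 15 measured genes with 0 higher, 2 lower and a median log2 ratio of 0.15, where 4.24% of all genes were higher and 8.51% lower. The Notch ligand gene Dll3 stood at 31.4 and 44.3 CPM, the Notch-modifying glycosyltransferase gene Mfng at 106 and 135 CPM and Hes6, a gene of committed progenitors, at 275 and 305 CPM. None of these 3 genes was past the limit.

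**Figure D2:**
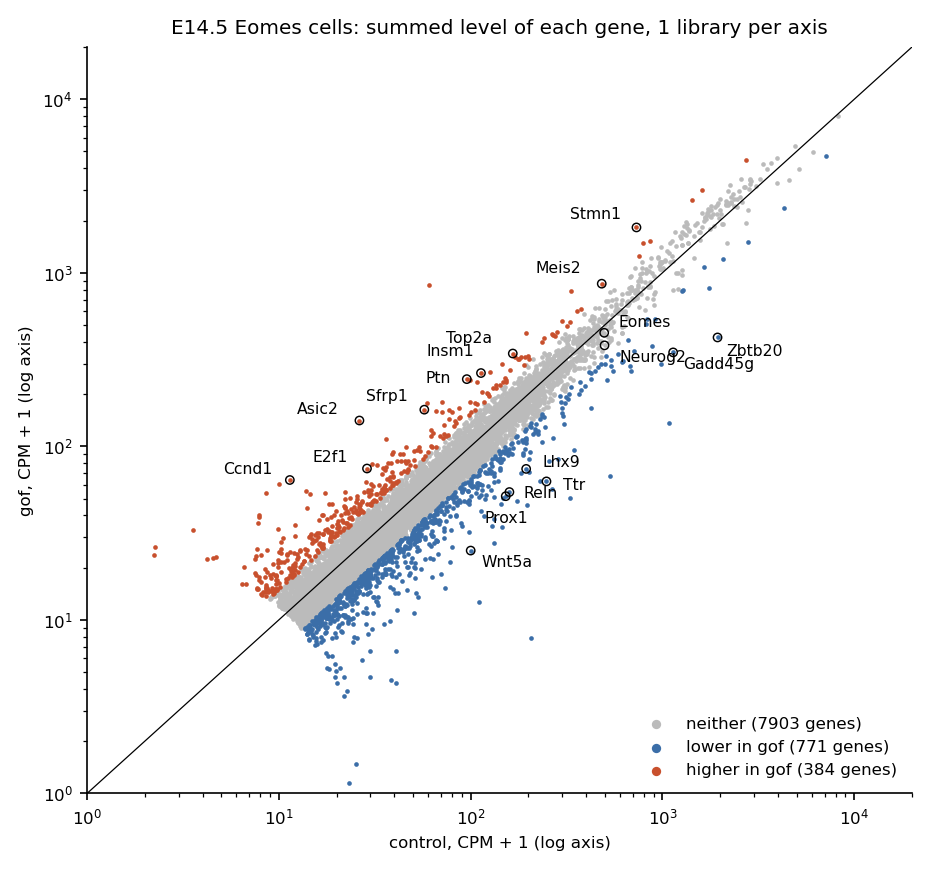
Level of each of the 9058 measured genes in control (x axis) and gof (y axis) Eomes cells, as CPM + 1 on log axes, with the 384 genes called higher in gof in red and the 771 called lower in blue. Stmn1, Insm1, Top2a and Ccnd1 lie above the line of equal level and Zbtb20, Gadd45g, Prox1 and Wnt5a below it.

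Genes of the dividing cell formed the largest group of calls among the lists. Of 30 measured genes of the G2 and M phases, 26 were higher in gof Eomes cells and none was lower, with a median log2 ratio of 0.88, against a background of 4.24% of all genes. Top2a, which untangles DNA before mitosis, stood at 165 CPM in control and 342 in gof (log2 ratio 1.05). Ube2c, part of the machinery that ends mitosis, stood at 194 and 448 CPM (log2 ratio 1.20), and the survivin gene Birc5, needed for chromosome segregation, at 65.1 and 159 CPM (log2 ratio 1.28). The list members not past the limit were Anln (16.1 and 19.9 CPM), Kif20b (39.3 and 55.9 CPM), Bub1 (34.0 and 50.1 CPM) and Plk1 (25.02 and 37.9 CPM). All 4 were also nominally higher in gof.

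Of 28 measured S-phase genes, 13 were higher, 0 were lower and the median log2 ratio was 0.55, beside 4.24% higher and 8.51% lower among all genes. E2f1, a factor that drives entry into S phase, stood at 27.8 CPM in control and 73.5 in gof (log2 ratio 1.37). The flap endonuclease gene Fen1 stood at 34.7 and 71.8 CPM and the replication licensing factor gene Cdt1 at 9.57 and 20.5 CPM. Cdt1 reached the mean of 10 CPM only through gof, so it could be called only higher. Several of the genes with the highest ratios outside the lists belong to the same machinery: the kinetochore gene Spc24 at 35.1 and 109 CPM, the replication clamp factor gene Pclaf at 98.2 and 241 CPM and the replication-dependent histone gene Hist1h2ap at 58.3 and 177 CPM. In radial glia of the same libraries, 0 of 30 G2 and M genes and 0 of 28 S-phase genes were called in either direction, with medians of −0.08 and 0.11, where 2.73% of 9022 genes were called higher and 8.21% lower. The difference between the 2 classes was not tested.

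The share of cells with a cycle transcript moved the same way. At 5000 UMIs per cell, 333 of 1356 control Eomes cells had a Top2a or Mki67 UMI, 24.6% (22.3 to 26.9), and 430 of 1120 gof cells did, 38.4% (35.5 to 41.3). At full depth the shares were 36.2% and 49.2%. Radial glia had thinned shares of 63.9% and 65.4%, and projection neurons, which should not divide, 6.003% and 4.45% at median depths of 15075 and 14464 UMIs. Both libraries of Eomes cells therefore lay between the other classes. Among Eomes cells with such a UMI, 11 of 30 G2 and M genes were still higher in gof, with a median of 0.56, where 3.65% of 9088 genes were higher and 8.57% lower. Top2a, among those 11, and Mki67 are in the list and also chose these cells, so their levels there support nothing. Cycling Eomes cells held 118 CPM of Insm1 in control and 296 in gof, and the others 107 and 203 CPM, so its difference was present in both.

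**Figure D3:**
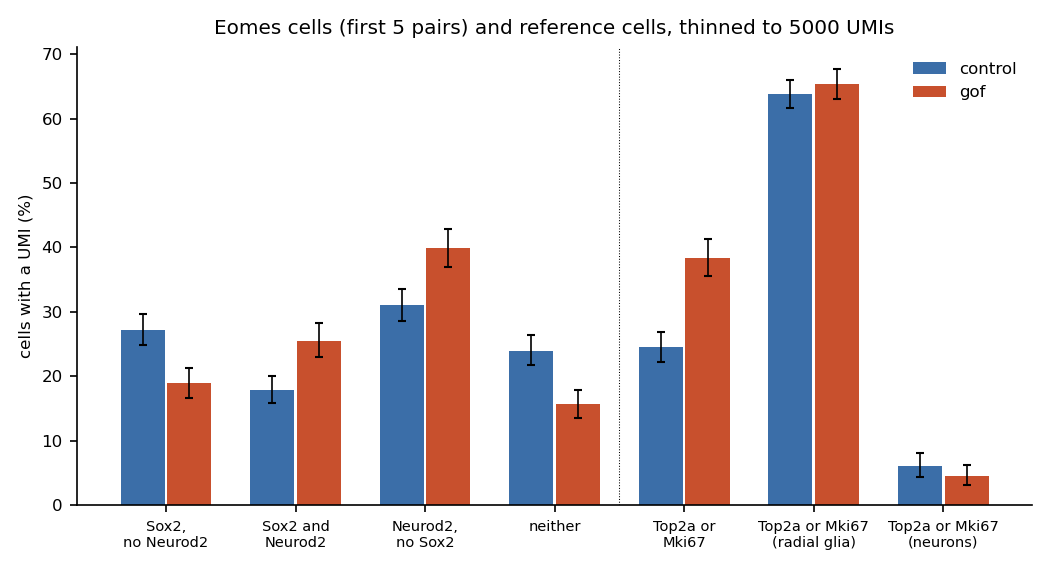
Percentage of cells with a UMI of the named genes after thinning to 5000 UMIs, in control and gof, with Clopper-Pearson 95% intervals as bars. Among Eomes cells, Top2a or Mki67 was found in 24.6% in control and 38.4% in gof, while the radial glia bars stood at 63.9% and 65.4%.

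The promoters of this group are shown because its members moved together. Genes of G2 and M are known to share CCAAT boxes, bound by the factor NF-Y, and cell cycle homology regions with the letters TTTGAA. The 250 bases before the start of 4 of these genes, from the RefSeq promoter table for GRCm38.p6, are printed 5' to 3' on the gene's strand, with every CCAAT or TTTGAA match on either strand in capitals. They are Top2a at chr11:99024190-99024439 on the minus strand, Ccnb2, a cyclin of mitotic entry, at chr9:70421555-70421804 on the minus strand, Ube2c at chr2:164769679-164769928 on the plus strand, and Cdc20, an activator of mitotic exit that was chosen after its values were seen, at chr4:118437344-118437593 on the minus strand.
Top2a: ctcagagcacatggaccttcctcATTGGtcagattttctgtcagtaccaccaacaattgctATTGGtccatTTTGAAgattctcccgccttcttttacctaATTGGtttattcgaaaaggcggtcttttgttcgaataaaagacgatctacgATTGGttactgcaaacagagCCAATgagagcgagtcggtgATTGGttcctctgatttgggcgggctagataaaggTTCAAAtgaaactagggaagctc
Ccnb2: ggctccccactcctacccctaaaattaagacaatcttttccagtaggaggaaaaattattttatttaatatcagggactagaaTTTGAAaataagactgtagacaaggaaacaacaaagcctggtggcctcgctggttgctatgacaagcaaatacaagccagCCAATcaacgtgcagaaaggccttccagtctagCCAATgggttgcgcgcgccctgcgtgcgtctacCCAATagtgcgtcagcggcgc
Ube2c: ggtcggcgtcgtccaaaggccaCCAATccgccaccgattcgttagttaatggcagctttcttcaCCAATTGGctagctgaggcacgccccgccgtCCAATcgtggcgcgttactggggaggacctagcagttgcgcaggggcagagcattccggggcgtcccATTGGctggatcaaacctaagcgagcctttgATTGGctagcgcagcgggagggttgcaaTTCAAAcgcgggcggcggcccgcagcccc
Cdc20: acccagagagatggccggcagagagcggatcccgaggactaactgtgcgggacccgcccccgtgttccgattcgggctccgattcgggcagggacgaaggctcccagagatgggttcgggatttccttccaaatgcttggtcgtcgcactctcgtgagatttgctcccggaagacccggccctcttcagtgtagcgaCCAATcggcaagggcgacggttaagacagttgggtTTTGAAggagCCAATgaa
These stretches held 6 CCAAT matches in Top2a, 3 in Ccnb2, 6 in Ube2c, where a CCAAT and an ATTGG overlap once, and 2 in Cdc20, and at least 1 TTTGAA match each. Ccnb2 stood at 34.0 CPM in control and 74.3 in gof, and Cdc20 at 45.2 and 97.7 CPM. Of the G2 and M genes, 27 of 30 matched the table, and in the 250 bases before the start 20 held CCAAT and 9 held TTTGAA. Of the 27025 promoters in the table, 34.5% held CCAAT and 16.3% TTTGAA in the same 250 bases. A match is a description of letters and does not show binding.

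Genes that regulate the cycle were divided. Ccnd1, the cyclin that carries cells through G1 and a known Wnt target, stood at 10.4 CPM in control and 63.0 in gof (log2 ratio 2.49), and its partner kinase gene Cdk6 at 29.5 and 78.1 CPM. Of 12 measured inhibitors and exit genes, 2 were higher and 3 lower, where 4.24% of all genes were higher and 8.51% lower. The inhibitor gene Cdkn1b, whose product p27 accumulates at cell cycle exit, was lower at 186 and 105 CPM, and so were Ccng1 and the p53-inducible Trp53inp1. The p53-inducible inhibitor gene Cdkn1a was higher at 8.97 and 59.7 CPM, but among cells without a tdTomato UMI it stood at 6.77 and 8.43 CPM and among cells with at least 2 at 18.4 and 239 CPM. Over all Eomes cells Cdkn1a reached the mean of 10 CPM only through gof, so it could be called only higher. When the rule was applied to thinned barcodes, its log2 ratio was −0.01.

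The maturation state of the cells was read from Sox2, a stem cell factor, and Neurod2, a factor of young glutamatergic neurons. After thinning, cells with Sox2 and no Neurod2 made up 27.1% of control Eomes cells (24.8 to 29.6) and 18.9% of gof Eomes cells (16.7 to 21.3). Cells with Neurod2 and no Sox2 made up 31.0% (28.6 to 33.6) and 39.9% (37.0 to 42.8). Cells with both made up 17.8% and 25.5%, and cells with neither 24.0% and 15.6%. Of the GABAergic reference cells, 11.54% and 7.69% had a Neurod2 UMI after thinning. The gof cells thus held Neurod2 more often and Sox2 alone less often, with separate intervals, alongside the larger share with a cycle transcript. Sox2 with or without Neurod2 was found in similar shares of the libraries. Without and with Neurod2, it was found in 368 and 242 of 1356 control cells and in 212 and 286 of 1120 gof cells. In the list of 18 pallial glutamatergic genes, 6 were higher, 1 was lower and the median log2 ratio was 0.18, beside 4.24% higher and 8.51% lower among all genes.

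Levels followed these states within each library. At full depth 242 control and 91 gof cells had Sox2 without Neurod2, called early here, and 353 and 326 had Neurod2 without Sox2, called late. The names stand for those UMIs only. Hes5 stood at 1111 CPM in early and 160 in late control cells, and at 1266 and 255 CPM in gof. Neurog2 stood at 639 CPM in early and 276 in late control cells, and Neurod1 at 116 and 744 CPM. In gof Neurog2 stood at 514 and 223 CPM and Neurod1 at 98.9 and 619 CPM, so the order of early and late cells was the same in both libraries.

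The genotype differences of several genes were present in both states. Insm1 stood at 87.6 CPM in early control cells and 229 in early gof cells, and at 99.0 and 207 CPM in late ones. Gadd45g stood at 1291 and 295 CPM in early cells and at 782 and 298 CPM in late ones. Zbtb20 stood at 2310 and 503 CPM in early cells and at 1577 and 339 CPM in late ones. Top2a was found more in late gof cells than in late control cells, at 149 and 43.9 CPM, and Ccnd1 stood at 20.8 and 4.51 CPM in the same order. Top2a was also called higher in early gof cells. The median log2 ratio of the measured G2 and M genes was 0.34 in early cells and 1.51 in late ones. Over all measured genes it was −0.08 and −0.07. Single cells overlapped widely between the libraries: the 10th and 90th percentiles of Gadd45g were 249 and 2846 CPM in control and 59.0 and 810 CPM in gof, and the medians were 932 and 281 CPM.

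Neurod2 stood at 152 CPM in control and 241 in gof, Neurod6, a related factor of young projection neurons, at 267 and 439 CPM, and Bcl11b, a factor of deep-layer neurons, at 104 and 176 CPM. Pou3f2, a factor of upper-layer neurons and late progenitors, had the highest ratio of the list, at 13.6 and 52.3 CPM (log2 ratio 1.87). The upper-layer gene Cux2 stood at 17.6 and 29.2 CPM and the vesicular glutamate transporter gene Slc17a7 at 17.6 and 27.4 CPM. Unc5d, a netrin receptor gene of multipolar cells in the subventricular zone, was the member that was lower, at 914 and 540 CPM. Among 13 pan-neuronal genes, the RNA-binding protein gene Elavl3 was higher (240 and 421 CPM) while the microtubule gene Map2 (834 and 540 CPM) was lower.

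Radial glia genes as a list hardly moved, with 2 of 17 measured genes higher, 1 lower and a median log2 ratio of −0.02, beside the same 4.24% and 8.51%. Sox21, a Sox factor of progenitors, stood at 21.1 CPM in control and 48.7 in gof. Tnc, an extracellular matrix gene of radial glia, stood at 37.5 and 3.48 CPM (log2 ratio −3.10). The fatty acid binding protein gene Fabp7 was higher at 359 and 599 CPM, but in the cells with at least 2 tdTomato UMIs it stood at 1028 and 882 CPM, so its direction turned there.

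**Figure D4:**
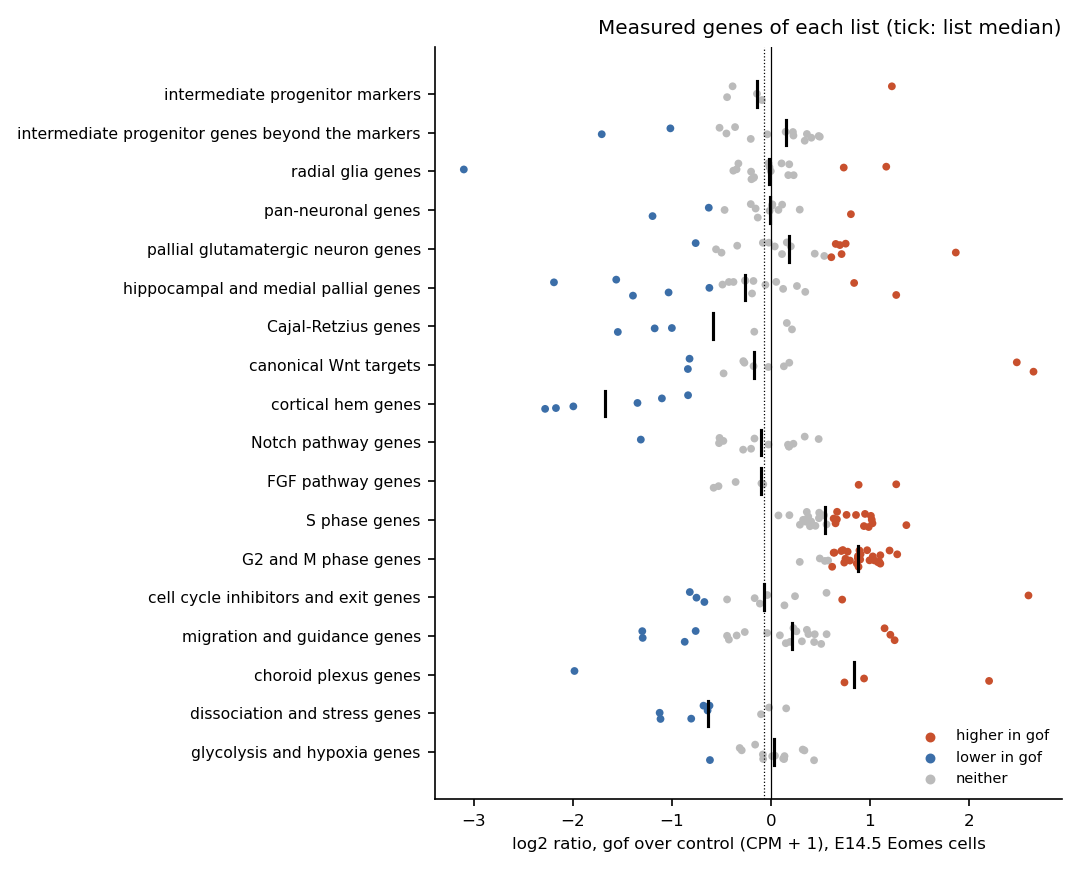
Log2 ratio (gof over control, CPM + 1) of each measured gene of 18 lists in the Eomes cells, 1 point per gene, coloured by call, with a tick at each list's median and a dotted line at the median over all genes. The G2 and M phase list has its median at 0.88 and the cortical hem list at −1.67.

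Genes of the hippocampal field were divided. Of 19 measured hippocampal and medial pallial genes, 2 were higher, 5 lower and 12 neither, with a median log2 ratio of −0.26, where 4.24% of all genes were higher and 8.51% lower. Zbtb20, a zinc-finger factor required for hippocampal identity that lies at chr16:42875881-43642602 on the plus strand, fell by 2.19 on the log2 scale, from 1936 CPM in control to 423 in gof. Its thinned share of cells was 95.9% in control (94.8 to 96.9) and 72.1% in gof (69.4 to 74.8), against 65.4% and 53.8% of the few GABAergic reference cells, at median depths of 7450 and 8656 UMIs. It was also lower in radial glia, at 1864 and 513 CPM, and in projection neurons, at 1130 and 216 CPM.

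Prox1, the factor of dentate granule neurons, stood at 151 CPM in control and 50.6 in gof (log2 ratio −1.56). Lhx9, a LIM-homeobox gene of the medial pallium, stood at 194 and 73.1 CPM (log2 ratio −1.39), and the medial patterning gene Emx2 at 193 and 125 CPM. Wnt8b, a Wnt gene of the medial wall, stood at 28.8 and 13.5 CPM. Genes that were higher were the homeobox gene Meis2, at 481 and 864 CPM (log2 ratio 0.84), and the Ets factor gene Etv1, at 5.72 and 15.2 CPM. Etv1 reached the mean of 10 CPM only through gof, so it could be called only higher.

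Hem genes measured in these cells were lower. Of 14 hem genes, 6 had a mean of at least 10 CPM in Eomes cells, and 0 were higher and 6 lower, with a median log2 ratio of −1.67, where 8.51% of all genes were lower. The other 8 lay below that level, so the 6 are not the whole list, and one of the 8, Bmp4, stood at 1.35 and 3.76 CPM. Wnt5a, a Wnt ligand gene, stood at 99.0 CPM in control and 24.1 in gof. The Wnt-enhancing R-spondin genes stood at 31.3 and 11.7 CPM (Rspo1), 72.9 and 14.2 CPM (Rspo2) and 209 and 117 CPM (Rspo3). Lmx1a, the gene whose driver made the Cre, stood at 21.2 and 9.36 CPM, and the secreted modulator gene Dkk3 at 28.7 and 5.60 CPM. Lmx1a and Dkk3 reached the mean of 10 CPM only through the control library, so they could be called only lower. The levels of Rspo1, Rspo2 and Lmx1a came mostly from cells with tdTomato: in cells without a tdTomato UMI Rspo2 stood at 2.52 and 0.703 CPM, and in those with at least 2 at 484 and 63.3 CPM.

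Cajal-Retzius genes were followed because that lineage also expresses Eomes, and Trp73 alone was used to leave it out. Of 13 such genes 6 were measured, 0 were higher and 3 lower, with a median log2 ratio of −0.58, where 8.51% of all genes were lower. Reln, the reelin gene of these neurons, stood at 158 CPM in control and 53.5 in gof, Ebf1 at 47.8 and 20.6 CPM and Nhlh2, a factor gene of newborn neurons, at 192 and 95.3 CPM. Summed over the list, the level was 511 CPM in control and 279 in gof. At least 3 UMIs in the sum of Reln, Lhx1, Lhx5, Ebf3 and Cacna2d2 were found in 516 control Eomes cells (37.9%) and 201 gof cells (17.8%).

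Without those cells 845 control and 926 gof cells remained, which is 12.0% and 16.6% of kept barcodes (log2 ratio 0.48). Of 8938 genes measured in them, 355 were higher (3.97%) and 790 lower (8.84%), and 285 of the 384 genes and 619 of the 771 genes kept their call. Unc5d, Map2 and Emx2 were among the lower genes that did not keep it. The part of Cajal-Retzius precursors in the other differences was not tested beyond this. The cells set aside for Trp73 differed in their own right: their Reln stood at 1573 CPM in 241 control cells and 554 CPM in 14 gof cells, and their Neurod2 at 50.6 and 242 CPM.

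The reporter divided the Eomes cells further. At least 2 tdTomato UMIs were found in 138 control cells (10.1%, 8.59 to 11.9) and 146 gof cells (13.0%, 11.05 to 15.1), called reporter cells below, and none in 1034 and 801 cells. Cells with 1 tdTomato UMI, 189 and 180 of them, were in neither group. Free RNA can give such UMIs: 1 of 33 and 3 of 30 GABAergic reference cells, and 2 of 10 and 4 of 13 endothelial reference cells, had at least 2. Reporter cells were deeper, with median depths of 22610 and 26595.5 UMIs, against 12805.5 and 13206 in cells without a tdTomato UMI. A cell without such a UMI is not shown to lack the reporter or the allele. In reporter cells 609 of 9441 genes (6.45%) were higher in gof and 928 (9.83%) lower, and in the cells without, 363 of 8915 (4.07%) and 833 (9.34%).

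Wnt targets differed by reporter. In all Eomes cells, 2 of 11 measured targets were higher and 2 lower, with a median log2 ratio of −0.17, where 4.24% of all genes were higher and 8.51% lower. In reporter cells 8 of 14 were higher and 0 lower, with a median of 0.81, where 6.45% of all genes were higher. In cells without a tdTomato UMI 1 of 10 was higher and 5 were lower, with a median of −0.82, where 9.34% of all genes were lower. A gene entered each set by its mean over both libraries, so the sets differ. For example, Notum and Dkk1 entered the reporter set only through gof. In cells without tdTomato, Sp5 entered only through control and Ccnd1 only through gof. Such genes could be called only in that direction. Radial glia had 4 of 13 higher and 0 lower, and projection neurons 6 of 10 higher and 0 lower, where 3% of 8753 genes in the neurons were higher and 6.31% lower.

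Among the secreted Wnt antagonists, Wif1 stood at 11.3 CPM in control reporter cells and 230 in gof reporter cells, and at 6.83 and 2.34 CPM in cells without tdTomato. Notum, which encodes a Wnt-inactivating deacylase, had no UMI in the control reporter cells and stood at 55.9 CPM in the gof reporter cells, at least 65.6-fold higher against a floor of 3 UMIs over the control group. Dkk1 stood at 0.851 and 46.2 CPM in reporter cells. In the cells without tdTomato it stood at 1.49 and 0.312 CPM. These feedback inhibitor genes were thus highest in the gof reporter cells among these 4 groups of Eomes cells.

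Of the target genes inside the cell, Sp5, a zinc-finger repressor gene, stood at 48.2 and 119 CPM in reporter cells and at 20.9 and 2.34 CPM in those without tdTomato. Nkd1, an inhibitor of the pathway, stood at 142 and 262 CPM in reporter cells and 74.9 and 50.04 CPM in the others. Axin2, the scaffold gene used most often as a readout, stood at 124 and 119 CPM in reporter cells and at 49.4 and 22.2 CPM in the others. Lef1, the gene of a Wnt transcription factor, stood at 204 and 261 CPM in reporter cells, not past the limit, and at 215 and 78.5 CPM in the others. The receptor gene Tnfrsf19 stood at 84.3 and 119 CPM and at 104 and 38.6 CPM in the same order. Ccnd1 alone among the targets was called higher in both groups, at 13.9 and 91.6 CPM in reporter cells and 9.07 and 53.8 CPM in the others. Whether the effects differ between the groups was not tested, since each rests on the same 2 libraries.

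Several genes with the highest or lowest ratios in reporter cells had other ratios in the cells without tdTomato. Asic2, an acid-sensing ion channel gene, stood at 73.2 and 622 CPM in reporter cells and at 15.2 and 6.401 CPM in those without tdTomato. Mybpc1, a myosin-binding protein gene, stood at 19.3 and 227 CPM and at 21.6 and 2.42 CPM. Prkcb, a protein kinase C gene, stood at 10.5 and 151 CPM, and Sostdc1, which encodes a secreted Bmp and Wnt antagonist, at 19.3 and 142 CPM, against 5.79 and 6.56 CPM and 4.70 and 2.73 CPM in the others. In the other direction the adaptor gene Pid1 stood at 135 and 19.5 CPM in reporter cells and at 9.70 and 15.5 CPM in those without tdTomato. Lrp1b, a lipoprotein receptor gene, stood at 1119 and 242 CPM against 38.6 and 38.2 CPM. Bmp4 and Bmp7 were the hem genes that were higher in gof reporter cells, at 6.53 and 15.6 CPM and 13.6 and 31.5 CPM. Bmp4 reached the mean of 10 CPM there only through gof. Of the 13 measured hem genes there, 10 were lower, where 9.83% of all genes were.

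Other genes were called the same way in both groups. Insm1 stood at 68.9 and 220 CPM in reporter cells and at 121 and 278 CPM in those without tdTomato. Gadd45g stood at 815 and 368 CPM and at 1217 and 342 CPM, and Zbtb20 at 2418 and 487 CPM and at 1803 and 395 CPM. Of the G2 and M genes, 13 of 30 were higher in reporter cells and 28 of 30 in the others, with medians of 0.56 and 0.92. Among all genes 6.45% and 4.07% were higher. The differences in these 3 genes and in the cycle genes were therefore present in cells in which no tdTomato was captured.

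**Figure D5:**
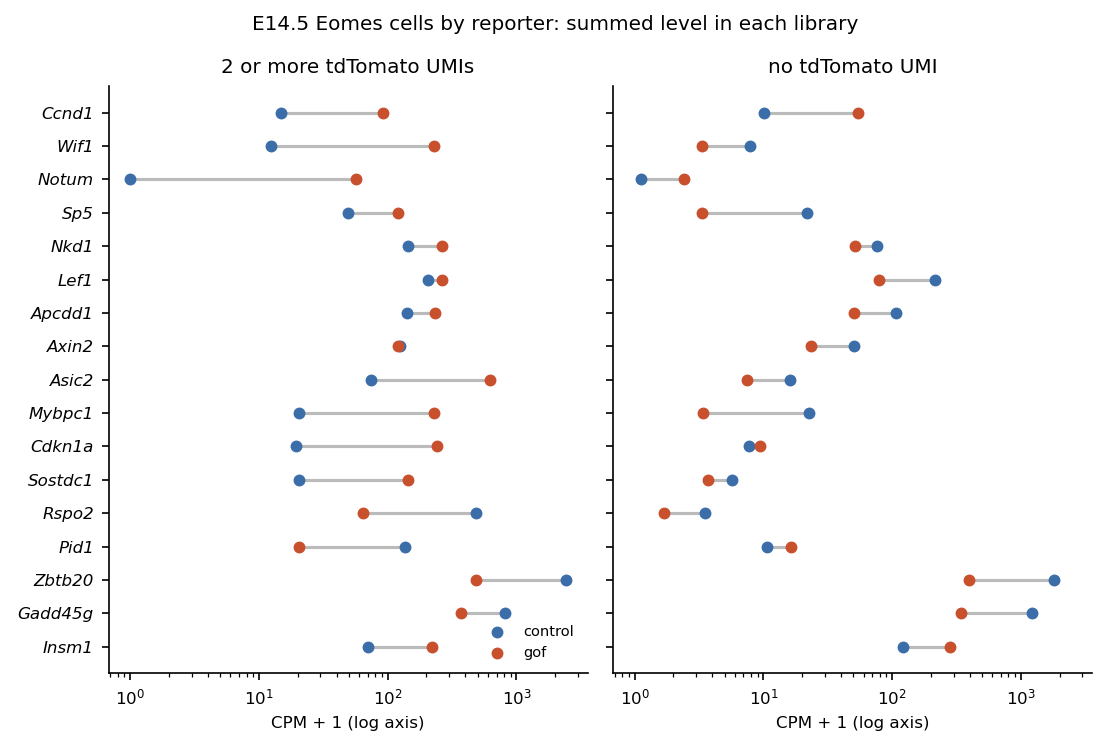
Level (CPM + 1, log axis) of 17 genes in control and gof Eomes cells with at least 2 tdTomato UMIs (left) and with none (right). Wif1, Sp5, Asic2 and Mybpc1 lie higher in gof on the left and lower on the right, while Ccnd1 and Insm1 are higher and Zbtb20 and Gadd45g lower on both sides.

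Of 24 measured genes of migration and guidance, 3 were higher and 4 lower, with a median log2 ratio of 0.21, where 4.24% of all genes were higher and 8.51% lower. The semaphorin gene Sema5a stood at 38.1 CPM in control and 92.2 in gof, and the cadherin gene Cdh8 at 69.7 and 156 CPM. Cxcr4, a chemokine receptor gene of migrating progenitors and Cajal-Retzius neurons, stood at 27.5 and 10.6 CPM, and Sema3c at 37.0 and 14.4 CPM. The netrin receptor gene Dcc stood at 4302 and 2354 CPM, so both netrin receptor genes named here, Dcc and Unc5d, were lower. Without cells high in Cajal-Retzius genes, Dcc kept its call and Unc5d did not. Notch pathway genes were mostly below the limit, with 0 of 14 higher and 1 lower, the effector gene Hey2 at 30.9 and 11.8 CPM. Of 15 FGF pathway genes, 8 lay below the mean of 10 CPM. Etv1 and the feedback inhibitor gene Spry2 (8.66 and 16.9 CPM) were higher, and both reached that mean only through the gof library. The other 5 were in neither direction.

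Among all measured genes, other high ratios belonged to Sfrp1, a secreted Wnt modulator gene of radial glia, at 56.3 and 162 CPM, and to the growth factor gene Ptn at 94.4 and 243 CPM. Both were also higher in radial glia, at 175 and 419 CPM and at 407 and 1069 CPM. Stmn1, a microtubule-destabilising gene of dividing and migrating cells, stood at 731 and 1824 CPM. The lowest ratios included the postsynaptic scaffold gene Dlgap2 at 109 and 11.7 CPM, the cadherin gene Pcdh15 at 266 and 55.6 CPM, the calcium channel subunit gene Cacna2d3 at 196 and 45.1 CPM and the ephrin receptor gene Ephb1 at 346 and 94.6 CPM. Cadps, a gene of vesicle release, stood at 982 and 297 CPM. In radial glia each of these 5 genes was also lower, for example Pcdh15 at 349 and 78.6 CPM and Cadps at 988 and 199 CPM.

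Several values that can reflect other cells or handling moved with genotype. Ttr, the choroid plexus secretory gene, stood at 247 CPM in control Eomes cells and 61.8 in gof, with a UMI in 57.5% and 9.76% of cells, and in projection neurons at 91.4 and 5.90 CPM with a UMI in 55.3% and 7.68%. Eomes cells thus carried Ttr about as often as neurons of the same library did, but its level was called higher in them than in neurons in both libraries. The source of these UMIs was not tested. Of 13 choroid plexus genes, 4 were measured in Eomes cells. Trpm3, Sostdc1 and Igfbp2 were higher in gof and Ttr was lower, with a median log2 ratio of 0.84. Among all genes 4.24% were higher and 8.51% lower. Of 9 measured dissociation and stress genes, 6 were lower and 0 higher, with a median of −0.64, where 8.51% of all genes were lower, for example Fos at 109 and 50.03 CPM and Jun at 423 and 242 CPM. Radial glia had 8 of 10 lower, where 8.21% of all genes were. Haemoglobin UMIs lay mostly in single cells: 8 control and 1 gof Eomes cells with at least 100 of them held 52464 of 53923 and 3188 of 5478. Without these cells 384 of 9063 genes were higher (4.24%) and 773 lower (8.53%).

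GABAergic genes were few, with 3 of 15 measured in Eomes cells, 1 higher and 0 lower, where 4.24% of all genes were higher and 8.51% lower. Their summed level was 180 CPM in control and 173 in gof, and Nkx2-1 was at 0 in both. Scrublet, a doublet caller, gave its highest scores to 164 of 1361 control Eomes cells (12.05%) and 109 of 1127 gof Eomes cells (9.67%). Of all deposited barcodes it gave them to 492 of 7844 in control and 314 of 6263 in gof, smaller shares than among Eomes cells. Without the marked cells, 417 of 8990 measured genes were higher and 828 lower. The ribosomal protein gene Rpl29, outside the naming rule and chosen after its values were seen, stood at 59.4 and 847 CPM in Eomes cells, at 63.5 and 951 CPM in radial glia and at 53.8 and 722 CPM in projection neurons. Its difference was thus alike in size in these 3 classes, with log2 ratios of 3.81, 3.88 and 3.72. The part of these values in the differences above was not tested.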

How the data were processed

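Chemistry was 10x Chromium 3' v3.1, per the labels. For each library the authors deposited raw UMI counts by gene and barcode. The submitters' processing notes name Cell Ranger 7.1.0 and mm10, and the sources used here name no annotation. Only barcodes with at least 500 UMIs were deposited. The members, the gene lists and the comparisons were chosen with earlier results of these data known.

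UMIs were summed per library and cell class with Python 3.11.15 (numpy 2.4.6, scipy 1.17.1, pandas 2.3.3) and divided by the class total to give CPM. Ratios used a pseudocount of 1 CPM. A call needed a mean of 10 CPM, 1.5-fold and separate exact Poisson 95% intervals. Shares have Clopper-Pearson intervals. There was 1 library per group, so no replicate spread, p-value or standard error was computed. The calling step was tested on simulated data. PCR copies are collapsed by the UMI, and intervals cover counting error only.

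For shares, each cell was thinned to 5000 UMIs (seed 1) and shallower cells were left out: 5 control and 7 gof Eomes cells. Barcodes shared between the E14.5 libraries numbered 9 among kept cells and 0 among Eomes cells. Doublets were not removed. Scrublet (scanpy 1.11.5) called 2 control and 401 gof barcodes by its own threshold, so it did not work in control, and an alternative removed its highest scores instead (0.8% per 1000 barcodes).

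The naming rule covered the 15 highest and 15 lowest called genes of at least 50 CPM. It also covered the 8 highest and 8 lowest in reporter cells and against each other class. The 3 members of every list at either end of its measured range, and the markers, came under it too. Only some of these genes are named in the text. That rule left out clone-named and Y-linked genes and those of haemoglobin, mitochondria and ribosomes. Other list members named, and cells set aside for Trp73, were chosen after their values were seen. Alternatives changed the Eomes minimum, barcode filter, scaling, pseudocount, level filter, fold, depth, weighting of cells and the cells used. Promoters came from RefSeq (GRCm38.p6), using the first listed start of each gene.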

Additional observations from a re-analysis of the deposited data

Results flagged for a closer look

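In all, 25 genes were called in opposite directions, gof against control, in the Eomes cells with at least 2 tdTomato UMIs and in those with none. The 5 of them that the naming rule covers are given here. The difference between the groups was not tested, and each group rests on 1 library per genotype. Values are log2 ratios, gof over control. Asic2, an acid-sensing channel gene, had 3.07 in reporter cells and −1.13 in the others. Mybpc1, a myosin-binding protein gene, had 3.49 and −2.72. The Wnt target gene Sp5 had 1.28 and −2.71. Ina, an intermediate filament gene of neurons, had 1.18 (102 and 231 CPM) and −0.70 (61.3 and 37.2 CPM). Pid1, an adaptor gene, went the other way with −2.73 and 0.62. In cells without tdTomato, Asic2, Mybpc1 and Sp5 reached the mean of 10 CPM only through control and Pid1 only through gof. There they could be called only in that direction. For Asic2 the ratio over all Eomes cells was 2.42, with a UMI in 17.6% of control and 14.2% of gof cells, so the share of cells was not higher in gof while the summed level was. Its ratio was 0.81 when thinned barcodes were used and 0.38 without cells high in Cajal-Retzius genes.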

How the results depend on the processing

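Alternatives were planned except those on haemoglobin-rich cells and on cells with or without a Top2a or Mki67 UMI, which were chosen after seeing the data. The log2 ratio of the share of Eomes cells, gof over control, was 0.07. It was −0.18 after thinning, 0.48 without cells high in Cajal-Retzius genes and 0.42 for cells with at least 2 tdTomato UMIs. The 384 higher and 771 lower genes became 125 and 252 with a 50 CPM filter, which tests fewer genes, 904 and 1373 with no filter, which tests more, and 105 and 193 at 2-fold. Reporter cells gave 609 higher and 928 lower genes. Under the other settings the counts ran from 284 to 438 higher and from 566 to 847 lower. Of the calls on named genes, 29 of 100 were lost at 2-fold, 10 of 86 after thinning, 9 of 95 without cells high in Cajal-Retzius genes, 10 of 98 in reporter cells and 0 to 7 under each other setting. The lowest share of calls that were higher was 25.1%, in cells without a Top2a or Mki67 UMI, against 33.2% in the reported comparison. With scaling by the median ratio it was 39.3%. Directions turned for Asic2 (−1.13), Mybpc1 (−2.72) and Pid1 (0.62) in cells without a tdTomato UMI, for Fabp7 (−0.22), Lef1 (0.35), Tnfrsf19 (0.49) and the Wnt target median (0.81) in reporter cells, and for Cdkn1a (−0.0072) and the median of further intermediate progenitor genes (−0.15) after thinning. The choroid plexus median was −0.62 with a 50 CPM filter, against 0.84 in the reported comparison. Without haemoglobin-rich cells Hba-a1 was at 0.79, Hbb-bs at 0.76 and the non-neural median at 0.77. In the reported comparison Hba-a1 and Hbb-bs were called lower and the non-neural median was −2.98, so these directions turned as well. The causes were not tested. No paired analysis was possible because each group had 1 library. With a single pool per genotype, the spread between embryos cannot be seen.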

Other observations

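In gof reporter cells some genes of other lineages were detected. Gad1, a gene of GABA synthesis, stood at 1.13 CPM in control and 24.5 in gof reporter cells, and at 0.172 and 0.156 CPM in cells without tdTomato. Fgf17, a signalling gene of the rostral and midhindbrain patterning centres, stood at 0.567 and 21.3 CPM in reporter cells and at 0.115 and 0.781 CPM in the others. Of the other GABAergic genes, Dlx6, Lhx6, Lhx8, Nkx2-1 and Slc32a1 were at 0 in reporter cells of both libraries.

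The collagen gene Col3a1, a gene of fibroblasts, stood at 1.27 CPM in control and 25.2 in gof Eomes cells, with a UMI in 0.808% and 3.02% of them. Col3a1 reached the mean of 10 CPM only through gof. Among glycolysis and hypoxia genes 0 of 14 measured were higher and 1 was lower, the mitophagy gene Bnip3 at 40.7 and 26.2 CPM. Their median was 0.03, and 4.24% of all genes were higher and 8.51% lower. The mitral cell list had 1 measured gene, Slc17a7. At E11.5 the same thresholds found 99 control and 73 gof barcodes, which were not compared here.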
